A study of Homo sapiens with 12 samples.

Results

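The genes described here encode the machinery that brings proteins into mitochondria and then folds, trims or degrades them. They are 49 listed genes of the import complexes, the chaperones, the peptidases and the proteases, found among the 62703 gene identifiers of the count table by their symbols in GENCODE, and 48 of them were among the 15920 genes with enough counts to test. The RNA came from HCT116 cells, a human colorectal carcinoma line, transfected for 48 h with a control siRNA or with hnRNP U siRNA by Lipofectamine RNAiMAX. Total RNA and heavy polysomal (HP) RNA, the RNA of sucrose gradient fractions that carry many ribosomes, were sequenced in 3 replicates for each siRNA, which gave 4 conditions and 12 libraries. The study asked whether hnRNP U, an RNA-binding protein, controls translation of nuclear-encoded mitochondrial mRNAs that hold an RNA G-quadruplex (RG4), a fold of G-rich RNA. Here that question became 3 comparisons, of hnRNP U siRNA with control siRNA within each RNA fraction and in the ratio of HP to total RNA, and a further comparison of HP with total RNA within the cells of each siRNA. No source used here says which hnRNP U siRNA gave these libraries, and all conditions share the cell line and the transfection.

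Most mitochondrial proteins are encoded in the nucleus, made by cytosolic ribosomes and imported. The TOM complex of the outer membrane receives them, the TIM23 complex and its HSP70 motor carry proteins with a presequence into the matrix, and the TIM22 complex, fed by small TIM chaperones, inserts carriers into the inner membrane. The SAM complex builds outer membrane barrels, a disulfide relay traps small proteins of the intermembrane space, and peptidases, chaperonins and proteases finish or remove what has arrived.

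The libraries held between 30305012 and 39761103 counts. HNRNPU itself fell from 1028 ± 67.9 to 159 ± 9.47 normalised CPM (counts-per-million of a TMM-scaled library; mean ± SD, n = 3) in total RNA and from 1080.3 ± 61.5 to 78.3 ± 3.71 in HP RNA, which is 6.49-fold and 14.1-fold lower. Of 9 epithelial and colorectal markers, 6 (EPCAM, KRT8, KRT18, KRT19, CDH1 and CDX2) had at least 18.1 CPM of the unscaled library total in every library, while CDX1, VIL1 and LGR5 had at most 0.0330. Of 8 markers of other cells, COL1A1 had 6.30 to 18.01 CPM and the other 7 had at most 0.141. RNAs of the mitochondrial genome took a share of total RNA counts of 10.8% to 11.4% in control cells and 8.84% to 9.70% in silenced cells, which did not overlap, and 0.868% to 1.24% against 1.19% to 1.29% in HP RNA, which did. The part of this difference in the results was not tested. A CPM value is a share of its library, so fewer molecules of an mRNA cannot be told apart from more of all the others.

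On the sense strand of transcripts, 4 G runs of 3 or more bases, parted by loops 1 to 7 nt long, were taken as an RG4 motif. It was present in any annotated transcript of 16 of the 49 genes (32.7%) and in the canonical transcript of 9 (18.4%), against 44.6% and 26.7% of all 12758 protein-coding genes tested. The motifs of 6 members are shown because these mRNAs went in different directions after silencing, as described below, with the G runs in capitals, 5′ to 3′ on the coding strand of GRCh38. The first pair lies in the 3′ UTRs of a member that rose and of another that fell, the next pair in the 3′ UTRs of the outer membrane channel and of a motor scaffold, and the last pair in 5′ UTRs.
TIMM13, 3′ UTR, chr19:2426154-2426176, minus strand: GGGtaGGGtacggtGGGGtGGGG
TOMM20, 3′ UTR, chr1:235110312-235110334, minus strand: GGGagaacaGGGGtGGGaaaGGG
TOMM40, 3′ UTR, chr19:44903390-44903410, plus strand: GGGcctGGGGtcccGGGaGGG
TIMM44, 3′ UTR, chr19:7927014-7927039, minus strand: GGGaGGGGacaacGGGctgttgcGGG
CHCHD4, 5′ UTR, chr3:14124789-14124811, minus strand: GGGcaggcctGGGaGGGGGcGGG
IMMP2L, 5′ UTR, chr7:111562296-111562324, minus strand: GGGGcGGGcgttgccGGGaggcggaGGGG
A motif describes these letters and not a fold that was measured.

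The mRNAs differed widely in abundance. Levels between genes were set side by side as counts per kilobase of merged exons, scaled to library totals as CPM are, in total RNA with control siRNA, as mean ± SD (n = 3), with no test. HSPD1, the large subunit of the matrix chaperonin, was the highest of the members at 183 ± 10.5. It was followed by PHB2, a prohibitin of the inner membrane, at 103 ± 0.399, and by the presequence receptor TOMM20 at 92.8 ± 4.18. TRAP1, the HSP90 of the matrix, at 80.3 ± 3.36 and the central receptor TOMM22 at 75.5 ± 1.05 overlapped between libraries, as did HSPA9, the matrix HSP70, at 67.5 ± 1.85 and the outer membrane channel TOMM40 at 65.2 ± 3.66. TIMM23, the inner membrane channel, lay between these pairs at 72.4 ± 0.0765. HSPE1, the small subunit of the chaperonin, was at 57.8 ± 3.34, below HSPD1 in every library.

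Most paralogues were unequal. TOMM40 stood at 65.2 ± 3.66 against 5.73 ± 0.1803 for its paralogue TOMM40L, and TIMM17A at 36.7 ± 0.814 against 4.87 ± 0.358 for TIMM17B, both subunits of the TIM23 channel. Among the small chaperones of the intermembrane space, TIMM10 stood at 30.5 ± 2.82 and TIMM10B at 9.64 ± 0.104, while TIMM8B, at 25.9 ± 0.434, was above TIMM8A at 5.61 ± 0.236. The order of TIMM10 and TIMM10B rests on their merged exon lengths, 776 and 2989 nt. In normalised CPM, with no length scaling, it was reversed, at means of 23.0 and 28.0. TIMM8B and TIMM8A, with 1166 and 3082 nt, kept their order at 29.3 and 16.8 CPM. GRPEL1 and GRPEL2, the nucleotide exchange factors of HSPA9, overlapped at 16.8 ± 0.266 and 18.02 ± 2.14.

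Counts of 3 members say little of their level. TOMM6, a small TOM subunit, had 0 counts in all 12 libraries, which allows 3 counts a library for counting error, but all its 637 exonic nt also belong to another annotated gene on the same strand (ENSG00000124593, a mean of 14.8 counts). TOMM5, with 8 to 76 counts, shares 340 and 520 exonic nt with 2 other annotated genes at 0 counts, and PAM16, with 7 to 67 counts, shares 522 nt with CORO7-PAM16, also at 0. Of the 49 genes, 11 share exonic bases with another gene on the same strand and 24 on the opposite strand, where counts stay apart only if strand was used. An opposite-strand neighbour had a higher mean count than the member for TOMM6, TIMM17B, TIMM22, TIMM8B, TIMM9, HSPE1, IMMP1L and HTRA2. Near-identical copies took few counts where they were annotated, at most 2.60% of the member's own (TIMM23B against TIMM23). This does not show how many reads that match a member and a copy alike were left out of the counts.

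**Figure D1:**
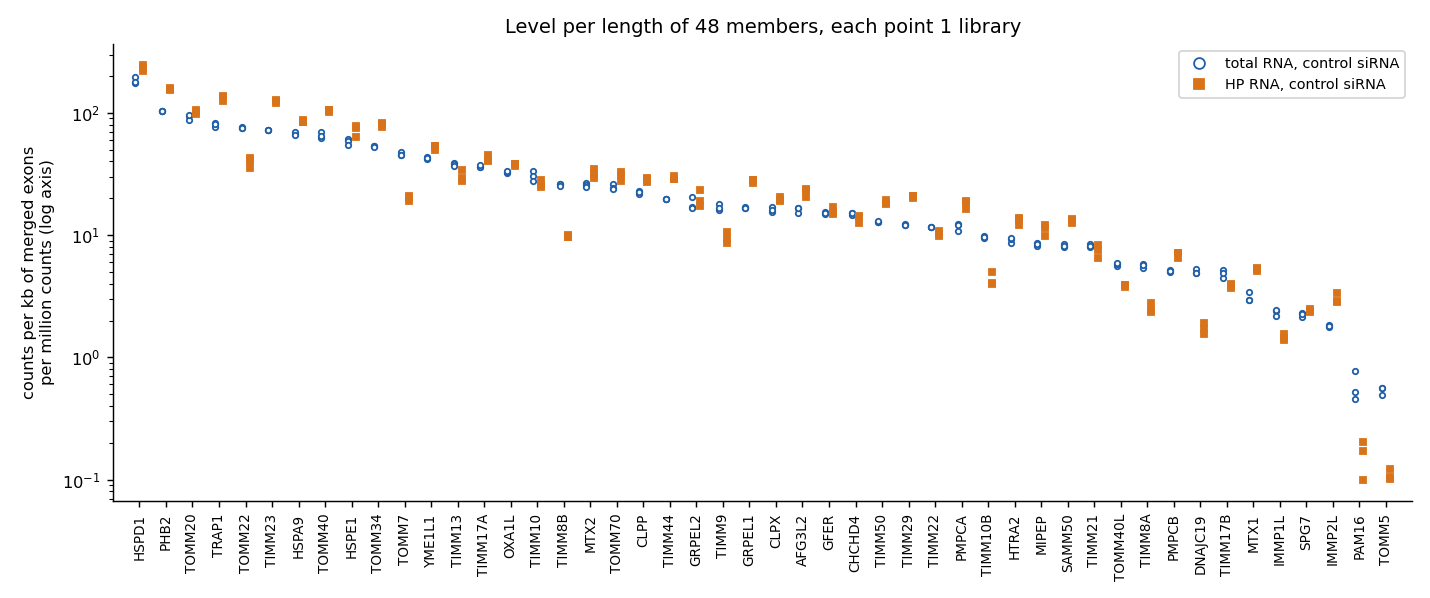
Level of 48 members in control siRNA cells, ordered by their mean in total RNA, in CPM per kilobase of merged exons (log axis), where each open circle is a total RNA library and each filled square an HP library (n = 3 each). HSPD1 is highest in total RNA at 183 ± 10.5 (SD, n = 3), and the squares lie farthest below the circles for TOMM5, PAM16, DNAJC19, TIMM8B, TOMM7, TIMM10B, TIMM8A and TOMM22.

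In total RNA, 22 of the 48 members rose with hnRNP U siRNA and 9 fell, which edgeR called at an adjusted p, over all genes, under 0.05. That was beside 28.0% of all genes tested called higher and 29.3% called lower. In HP RNA, 21 were higher and 7 lower, beside 25.5% and 26.3% of all genes. The members had a median log2 fold change of 0.11 in total RNA and 0.13 in HP RNA, where the medians of all genes were 0.00 and 0.01. Changes were small: MIPEP alone passed 2-fold, and 44 members in total RNA and 43 in HP RNA had log2 fold changes within 0.5 of 0. In total and HP RNA alike, 19 members were called higher and 7 lower, 15 were called in neither, and none was called in opposite directions. Values in brackets after the CPM are the log2 fold change of hnRNP U siRNA over control siRNA, its standard error (SE) and the adjusted p from edgeR. Libraries of a replicate number share an experiment name in their labels. The labels call the total RNA libraries input, but do not state whether the total and HP RNA of an experiment came from the same culture. With the experiment as a block, 3 further members were called in total RNA and 4 in HP RNA, each named where it is described, and no call was lost. Of the 48, 31 members in total RNA and 30 in HP RNA did not overlap between siRNAs, beside 62% and 58.3% of all genes.

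The TOM complex split. Of the 8 tested genes of the complex and its cytosolic partner TOMM34, which was higher, 4 were higher and 2 lower in each fraction. TOMM20, which first binds presequences, had 366, 359 and 348 CPM in the HP libraries of control siRNA and 318, 317 and 297 in those of hnRNP U siRNA. All 3 silenced libraries lay below the controls (−0.24, SE 0.05, adjusted p = 7.4e-04), and total RNA gave −0.15 (adjusted p = 0.0049). The other receptors went the other way: TOMM70, which binds carrier precursors, rose by 0.29 in HP RNA (adjusted p = 5.1e-04) and TOMM22 by 0.26 (adjusted p = 0.0024).

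In HP RNA the channel TOMM40 had 384, 394 and 377 CPM in control cells and 504, 465 and 462 in silenced cells, with no overlap (0.27, SE 0.05, adjusted p = 2.3e-04). TOMM40L had 12.4, 13.2 and 13.1 against 10.9, 10.8 and 11.6 CPM, lower in every silenced library (−0.26, SE 0.08, adjusted p = 0.017), so that the paralogues were called in opposite directions, though the difference between them was not tested. The HP call of TOMM40L was lost without hnRNP U siRNA replicate 1 or 2, at adjusted p up to 0.062. The cytosolic partner TOMM34, a co-chaperone, rose in total RNA (0.27) and HP RNA (0.22), and the small subunit TOMM7 was at −0.02 and 0.00, not called.

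Within TIM23 and its motor, 3 of 11 genes were higher and 2 lower in total RNA, and 2 and 2 in HP RNA. The rises seen in both fractions were those of HSPA9 and its partner GRPEL1. HSPA9 had 635, 669 and 622 CPM in total RNA with control siRNA and 813, 851 and 784 after silencing, and 837, 874 and 843 against 1131, 1207 and 1092 in HP RNA. Silenced libraries were above controls in both fractions (0.34, SE 0.04, adjusted p = 5.5e-06 in total RNA; 0.39, SE 0.05, adjusted p = 4.1e-06 in HP RNA).

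GRPEL1 moved alike, from 152, 154 and 145 CPM to 207, 204 and 191 in HP RNA (0.38, SE 0.05, adjusted p = 9.4e-06). Its paralogue GRPEL2 overlapped between siRNAs, with 105, 87.3 and 78.5 against 106, 98.9 and 88.3 CPM in HP RNA (0.08, SE 0.09, adjusted p = 0.46). TIMM21, which links TIM23 to the respiratory chain, was higher by 0.14 in total RNA (adjusted p = 0.037), a call lost with DESeq2, with no filter on low counts, with all 12 libraries in 1 fit or without any of 4 libraries (replicates 1 and 3 of control siRNA, 1 and 2 of hnRNP U siRNA). The channel TIMM23, the receptor TIMM50, the scaffold TIMM44 and the J-proteins DNAJC19 and PAM16 were called in neither fraction.

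The falls in this complex were those of both TIMM17 paralogues. TIMM17B had 13.1, 11.5 and 12.3 CPM in total RNA with control siRNA and 9.56, 10.3 and 9.67 with hnRNP U siRNA (−0.32, SE 0.08, adjusted p = 0.0017). In HP RNA it went from 10.3, 9.87 and 10.6 to 7.01, 6.66 and 6.83, with all silenced libraries lower (−0.62, SE 0.09, adjusted p = 2.7e-05). TIMM17B shares 402 exonic nt with PQBP1 on the opposite strand.

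In HP RNA TIMM17A went from 143, 162 and 149 CPM to 135, 113 and 121 after silencing (−0.33, SE 0.07, adjusted p = 4.1e-04), also without overlap. Its 3′ UTR is the only one among the 48 tested members with a 7-nt match to the guide seed (bases 2 to 8) of the first hnRNP U siRNA that the study lists, a match found in 7.31% of 12730 3′ UTRs. The match is shown in capitals with 10 nt on each side, on the plus strand of GRCh38.
TIMM17A, 3′ UTR, chr1:201970313-201970319 (capitals): agtgtttcttGTATGCTtgaaaataaa
The part of this match in the fall of TIMM17A was not tested. The guide seed of the second listed siRNA was matched in TOMM20, which fell, TOMM70, which rose, PMPCB, which was lower in total RNA, and GRPEL2, which was not called, against 13.1% of all 3′ UTRs. The other 4 seeds of the listed siRNAs, control included, each had matches in 1 to 6 of the 48.

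In HP RNA the small TIM chaperones TIMM13 and TIMM8A held the largest rises among the members. In total RNA TIMM13 also rose most, but the metaxin MTX1 (0.69) came before TIMM8A (0.64). Of the 8 genes of TIM22 and its chaperones, 5 rose in HP RNA, 4 rose in total RNA and none fell. TIMM13, on chromosome 19, had 62.3, 63.1 and 58.7 CPM in total RNA with control siRNA and 108, 108 and 102 with hnRNP U siRNA, and 57.05, 47.4 and 50.3 against 101, 82.5 and 87.9 in HP RNA. Every silenced library was above every control (1.72-fold, 0.78, SE 0.04, adjusted p = 3.3e-10 in total RNA; 1.71-fold, 0.78, SE 0.08, adjusted p = 2.2e-07 in HP RNA).

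TIMM8A, whose protein forms a hexamer with TIMM13, had 15.9, 17.6 and 17.00 CPM in total RNA of control cells against 27.8, 25.8 and 25.02 after silencing. Its HP RNA held less, 7.37, 8.84 and 7.74 against 13.2, 13.4 and 12.9 CPM, with the same separation (0.69, SE 0.09, adjusted p = 8.0e-06). TIMM8B rose in total RNA from 29.3, 30.1 and 28.6 to 36.1, 35.9 and 35.3 CPM (0.28, SE 0.05, adjusted p = 7.9e-05), while its HP RNA gave 0.22 (adjusted p = 0.048), a call lost with DESeq2, without a filter on low counts, or without any HP library other than hnRNP U siRNA replicate 3.

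TIMM10B rose from 28.1, 28.1 and 27.8 to 38.8, 37.7 and 36.00 CPM in total RNA (0.42, SE 0.05, adjusted p = 1.7e-06), and rose by 0.26 in HP RNA (adjusted p = 0.029). TIMM10, with TIMM9 the hexamer that carries hydrophobic precursors, had 19.2, 22.5 and 20.4 against 24.04, 26.4 and 23.2 CPM in HP RNA (0.21, SE 0.08, adjusted p = 0.033). The HP calls of both TIMM10 and TIMM10B were lost when replicate 1 or 3 of control siRNA, or 1 or 2 of hnRNP U siRNA, was left out, at adjusted p up to 0.16. In total RNA TIMM10 was at 0.15 and not called (adjusted p = 0.064), or called with the experiment as a block (adjusted p = 0.025). TIMM9, the carrier channel TIMM22 and its partner TIMM29 were called in neither fraction, but with the block TIMM9 was called higher (0.18, adjusted p = 0.048) and TIMM22 lower (−0.15, adjusted p = 0.034) in HP RNA.

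Outer membrane assembly was split too. MTX1, a metaxin, had 9.39, 9.57 and 10.8 CPM in total RNA with control siRNA and 15.5, 15.9 and 16.9 with hnRNP U siRNA, and 17.9, 17.4 and 17.7 against 29.2, 28.4 and 27.4 in HP RNA. The siRNA groups stood apart in both (0.69, SE 0.08, adjusted p = 7.9e-07; 0.65, SE 0.07, adjusted p = 5.5e-07). MTX2, its partner, went from 60.7, 56.3 and 51.3 to 80.7, 75.5 and 72.95 CPM in HP RNA, also apart (0.41, SE 0.07, adjusted p = 5.6e-05).

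SAMM50, the barrel of the complex, fell in total RNA (−0.23, SE 0.05, adjusted p = 4.7e-04), while its HP RNA gave −0.12 (adjusted p = 0.085, or 0.017 with the experiment as a block). MTX1 shares 568 exonic nt with an antisense RNA at a mean of 4.33 counts, against 624 for MTX1. Both genes of the disulfide relay were higher in each fraction: CHCHD4, its oxidoreductase, by 0.13 and 0.30 in total and HP RNA, and GFER, its sulfhydryl oxidase, by 0.25 and 0.19. The CHCHD4 call in total RNA (adjusted p = 0.045) and the GFER call in HP RNA (adjusted p = 0.045) were lost with DESeq2, the first also with no filter, with all 12 libraries in 1 fit or without any total RNA library but hnRNP U siRNA replicate 3, the second without replicate 2 or 3 of control siRNA, or 1 or 3 of hnRNP U siRNA.

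HSPD1, HSPE1 and TRAP1, listed as matrix chaperones, moved less than the motor chaperone HSPA9. HSPD1 had 1288, 1467 and 1326 CPM in total RNA with control siRNA and 1489.8, 1536 and 1454 with hnRNP U siRNA, where the groups overlapped (0.13, SE 0.05, adjusted p = 0.033). In HP RNA they did not, at 1807, 1946 and 1733 against 2192, 2233 and 2054 (0.21, SE 0.05, adjusted p = 0.0035). The total RNA call was lost when replicate 1 or 3 of control siRNA, or 1 or 2 of hnRNP U siRNA, was left out, at adjusted p up to 0.13.

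HSPE1, which lies on the opposite strand beside HSPD1 and shares 135 exonic nt with it, was at 0.10 in total RNA (adjusted p = 0.12, or 0.03 with the block) and at 0.18 in HP RNA (adjusted p = 0.048), a call lost with DESeq2, at a minimum count of 50, or without control siRNA replicate 3 or hnRNP U siRNA replicate 1 or 2. TRAP1 was called in neither fraction, at 0.02 and 0.05.

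The peptidases held the largest fall among the members. MIPEP, the mitochondrial intermediate peptidase, which trims a further piece from some precursors after the presequence is removed, lies on the minus strand of GRCh38 (ENSG00000027001, chromosome 13, 23730189 to 23889400). It had 26.6, 28.6 and 27.6 CPM in total RNA with control siRNA and 11.3, 13.1 and 12.5 with hnRNP U siRNA. In HP RNA it had 33.96, 42.03 and 39.98 against 14.2, 18.8 and 16.5. No silenced library came near a control: the change was 2.25-fold down in total RNA (−1.17, SE 0.06, adjusted p = 2.9e-10) and 2.402-fold down in HP RNA (−1.26, SE 0.10, adjusted p = 6.1e-09). No seed match to either strand of the listed siRNAs was found in its 3′ UTR, and it holds no RG4 motif.

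IMMP2L, a subunit of the inner membrane peptidase, fell from 7.03, 6.897 and 6.99 to 4.16, 5.51 and 5.75 CPM in total RNA (−0.44, SE 0.11, adjusted p = 0.0034). Its HP RNA fell from 13.5, 11.6 and 11.7 to 7.87, 9.83 and 9.63 CPM (−0.46, SE 0.10, adjusted p = 0.0011), and neither fraction overlapped. Its partner IMMP1L rose in total RNA (0.27, SE 0.09, adjusted p = 0.013) and was at 0.05 in HP RNA, not called. The paired subunits of the presequence peptidase were called in opposite directions in total RNA, PMPCA higher (0.16, adjusted p = 0.012) and PMPCB lower (−0.14, adjusted p = 0.011), and in HP RNA PMPCA alone was called (0.22). These total RNA calls were lost without hnRNP U siRNA replicate 1 for IMMP1L, control siRNA replicate 1 for PMPCA and hnRNP U siRNA replicate 3 for PMPCB.

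Of the 8 proteases and their neighbours in the inner membrane, 4 rose and 1 fell in total RNA, and 3 rose and 1 fell in HP RNA. HTRA2, a serine protease of the intermembrane space, rose by 0.34 in HP RNA (adjusted p = 2.9e-04), PHB2 by 0.28 (adjusted p = 9.0e-05) and AFG3L2, of the matrix-facing AAA protease, by 0.26 (adjusted p = 0.0022). Its partner SPG7 was at 0.09 and YME1L1, of the AAA protease facing the intermembrane space, at 0.11, neither called in HP RNA, though YME1L1 was with the block (adjusted p = 0.016). The total RNA call of YME1L1 (0.12, adjusted p = 0.023) did not last when replicate 1 or 3 of the control, or replicate 2 of the silenced cells, was left out. CLPP, at −0.07, and its unfoldase CLPX, at 0.10, were called in neither fraction, save CLPX in total RNA with the block (adjusted p = 0.044). OXA1L, which inserts proteins from the matrix side, was lower, with 166, 178 and 175 CPM in the HP libraries of control siRNA and 151, 161 and 151 in those of hnRNP U siRNA (−0.20, SE 0.05, adjusted p = 0.0043).

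**Figure D2:**
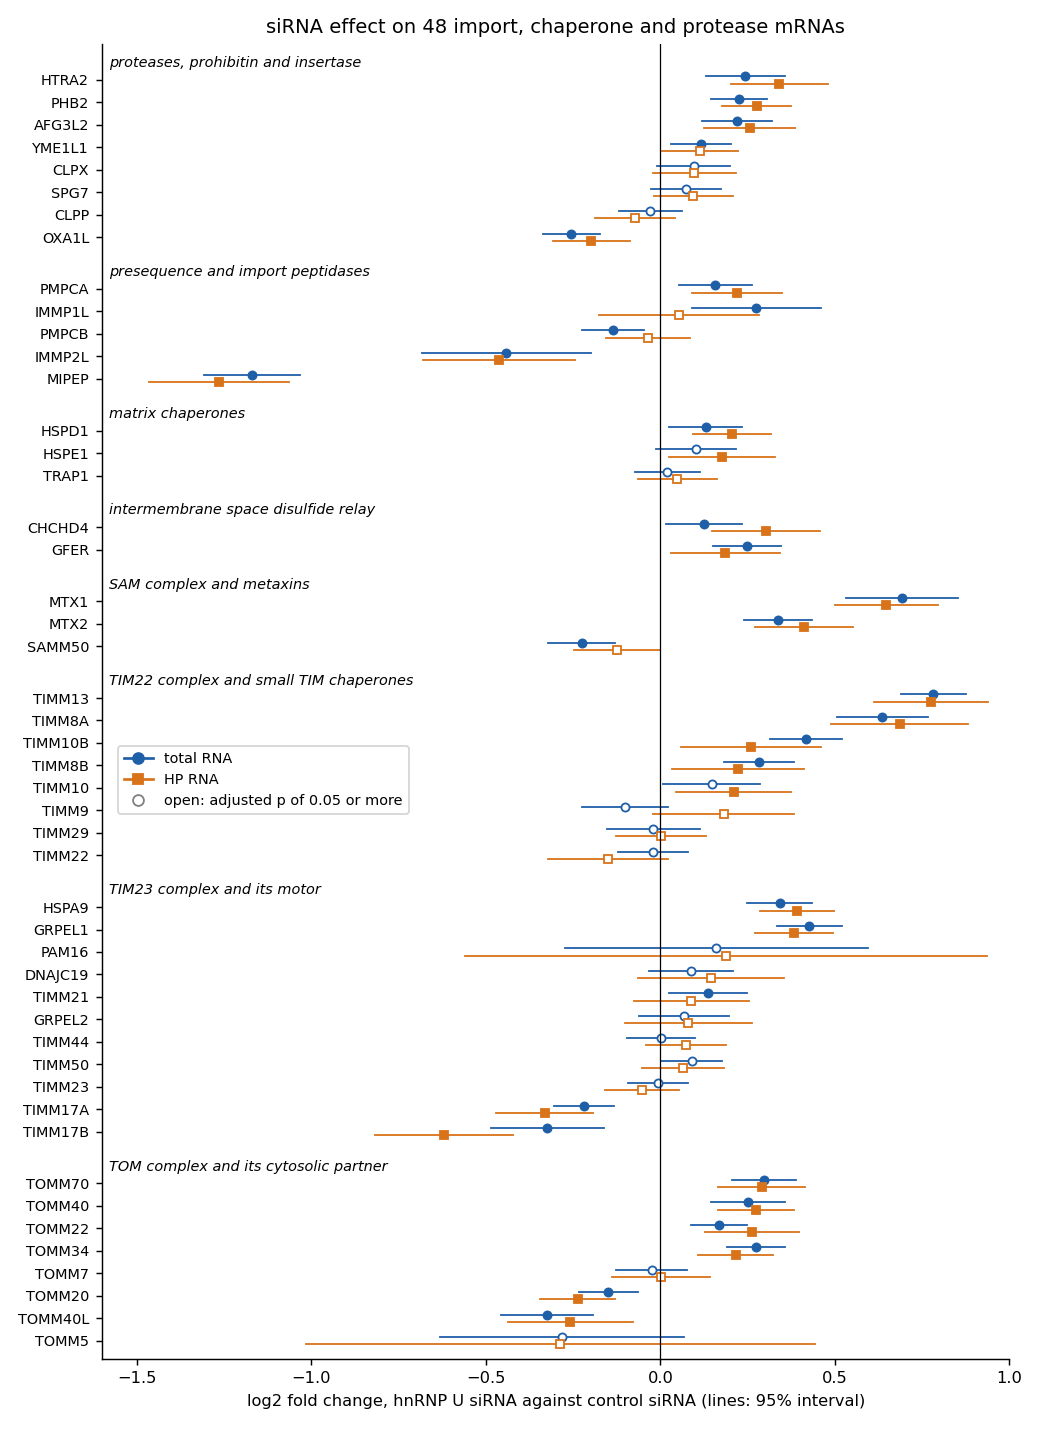
Log2 fold change of each of 48 members between hnRNP U siRNA and control siRNA in total RNA (circles) and HP RNA (squares), by complex, with 95% intervals (n = 3 libraries per condition); filled symbols have an adjusted p under 0.05 from edgeR. MIPEP stands apart on the left at −1.17 and −1.26, and TIMM13, TIMM8A and MTX1 lie farthest right.

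**Figure D3:**
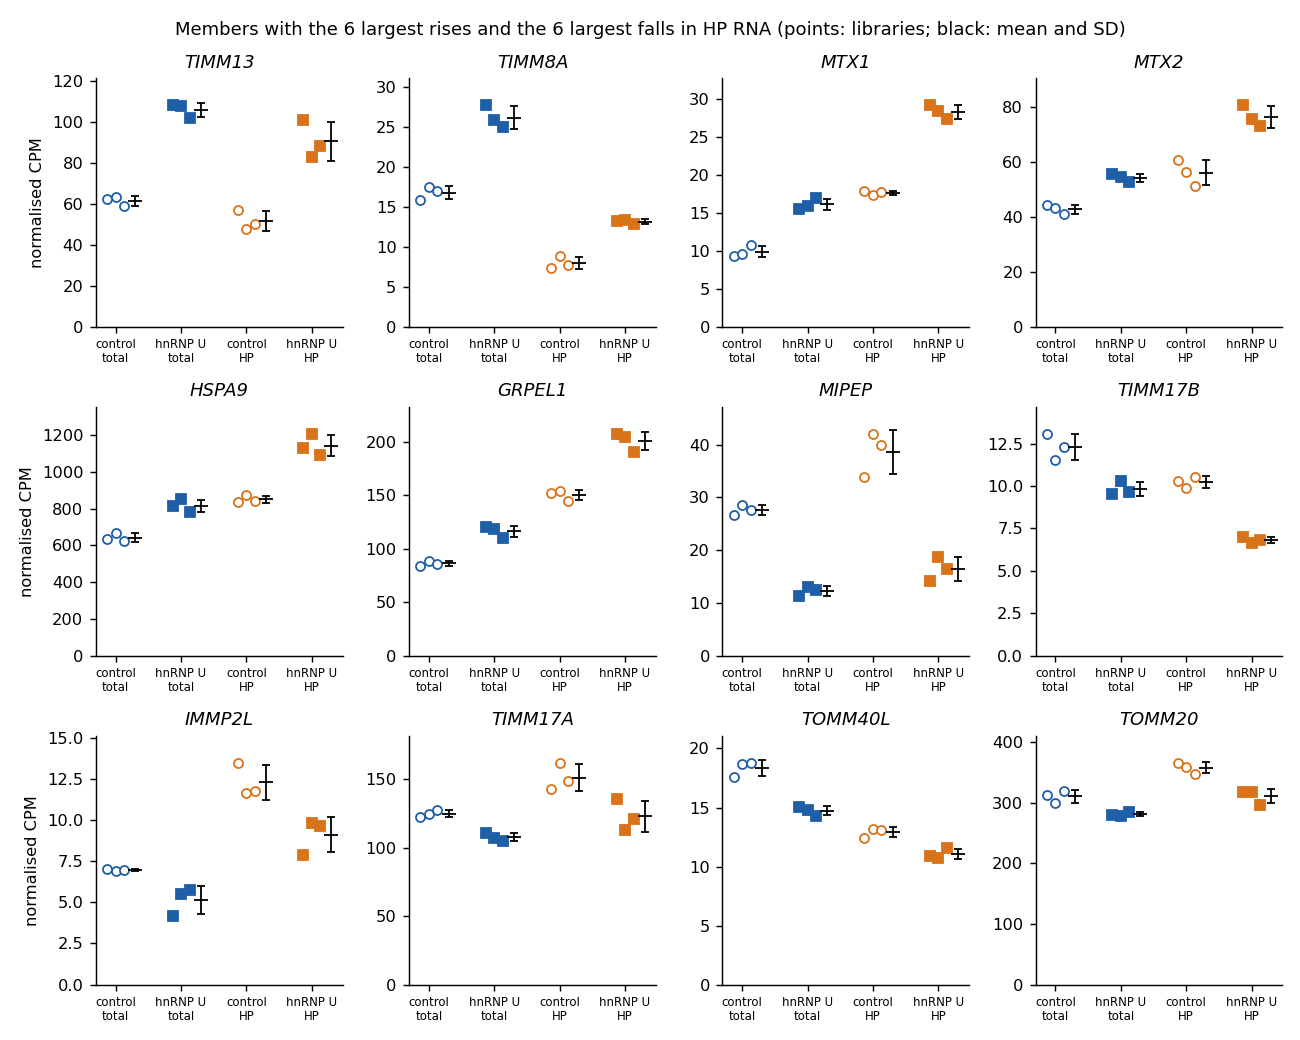
Normalised CPM in every library of the members with the 6 largest rises (TIMM13 to GRPEL1) and the 6 largest falls (MIPEP to TOMM20) in HP RNA, in total RNA (blue) and HP RNA (orange) with control siRNA (open circles) or hnRNP U siRNA (filled squares); the black bar is the mean with its SD (n = 3). These 12 were chosen by their HP change, and their siRNA groups do not overlap in either fraction; the HP points of TIMM13, TIMM8A, TIMM17B and TOMM40L lie below those of total RNA with the same siRNA.

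A further 37 genes of the same pathways, none of them a member, were counted beside these. Of the 37, 22 rose and 4 fell in total RNA, beside 28.0% and 29.3% of all genes tested. In HP RNA 17 rose and 5 fell, beside 25.5% and 26.3%. Their median log2 fold change was 0.18 in each fraction, where the medians of all genes were 0.00 and 0.01. The transcription factors that raise mitochondrial stress genes were among the higher: ATF5 went from 21.5, 23.99 and 18.6 to 34.3, 39.01 and 32.6 CPM in HP RNA (0.69, SE 0.09, adjusted p = 4.7e-06) and ATF4 from 154, 124 and 124 to 199, 191 and 191 (0.50, SE 0.07, adjusted p = 1.4e-05). DDIT3, which encodes CHOP, rose by 1.10 in HP RNA (adjusted p = 7.7e-06). In total RNA ATF4 overlapped between siRNAs, at 423, 328 and 314 against 464, 436 and 409 CPM, while ATF5 and DDIT3 did not overlap. The controls of DDIT3 there were uneven, at 15.3, 7.67 and 7.04 CPM. In HP RNA MICOS10, a subunit of the complex that shapes cristae, went from 6.67, 6.62 and 7.201 to 11.8, 11.1 and 11.6 CPM (0.71, SE 0.09, adjusted p = 5.1e-06). LONP1, the matrix protease, was higher by 0.25 in HP RNA (adjusted p = 3.2e-04), and OMA1, a stress-activated protease of the inner membrane, was lower by a log2 fold change of −0.42 (adjusted p = 3.6e-04). None of the 37 was called in the HP to total ratio.

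Promoters were searched for 3 motifs on both strands, in 300 bases from 250 before to 50 after the start of each gene (RefSeq, GRCh38.p14), which were given for 43 members. TGATGCAA, the element bound by ATF4 with CHOP, was in the promoters of PMPCB and TIMM22 (4.65% of members, 0.492% of 11182 promoters of genes tested). The NRF1 core CGCATGCG was in those of CHCHD4, TIMM9 and TOMM7 (6.98% against 3.93%). GAANNTTC, a minimal heat shock element, was in none of the 43 and in 4.65% of all. PMPCB was lower and CHCHD4 higher in total RNA, while TIMM22, TIMM9 and TOMM7 were called in neither fraction without the block.

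Within the cells of each siRNA, the share of an mRNA in HP RNA was compared with its share in total RNA. With control siRNA, 29 of 48 members were higher in HP RNA and 13 lower, beside 33.1% and 32.0% of all genes tested. With hnRNP U siRNA 30 were higher and 14 lower, beside 34.4% and 33.7%. The calls were the same with both siRNAs for 46 of 48 members and opposite for none. In this comparison the brackets hold the log2 ratio of HP to total RNA, its SE and the adjusted p. The members' median log2 ratio was 0.35 with control siRNA, where that of all genes was −0.02.

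Most members of the lower group have short coding sequences. Of the 14 tested members under 150 codons, 10 were lower in HP RNA with control siRNA and 2 higher, while of the 34 longer members 3 were lower and 27 higher. The lowest was TOMM5 (51 codons), with 1.96, 1.74 and 1.96 CPM in total RNA and 0.367, 0.456 and 0.387 in HP RNA (−2.22, SE 0.22, adjusted p = 5.7e-07). PAM16 (125 codons) had 1.17, 1.06 and 1.73 CPM in total RNA against 0.234, 0.486 and 0.413 in HP RNA (−1.79, SE 0.30, adjusted p = 1.1e-04). TOMM5 and PAM16 rest on few counts and share exonic nt with other genes on the same strand, as given above. The part of this sharing in their ratios was not tested.

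Well-counted members showed the same. DNAJC19 (116 codons) had 25.1, 23.8 and 23.1 CPM in total RNA and 7.74, 8.69 and 9.602 in HP RNA (−1.46, SE 0.08, adjusted p = 2.2e-09). TIMM8B (83 codons) had 29.3, 30.1 and 28.6 CPM in total RNA against 11.5, 11.6 and 11.98 in HP RNA (−1.33, SE 0.07, adjusted p = 6.1e-10). TIMM8B shares 351 exonic nt with NKAPD1 on the opposite strand, at a mean of 1506 counts against 803 for TIMM8B. The part of this sharing in its ratio was not tested. TOMM7 (55 codons) was at −1.14, TIMM10B (103) at −1.08, TIMM8A (97) at −1.07 and TOMM22 (142) at −0.86. In each of these the HP libraries lay below all those of total RNA with control siRNA, where 43 of 48 members and 68.2% of all genes did not overlap in one direction or the other.

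At the other end, TIMM23 (209 codons) had 82.9, 84.9 and 83.4 CPM in total RNA and 151, 149 and 156 in HP RNA (0.86, SE 0.05, adjusted p = 1.5e-09), and TIMM29 (260 codons) 20.9, 21.5 and 20.7 against 37.97, 36.8 and 38.4 (0.84, SE 0.06, adjusted p = 1.2e-08). MTX1 (466 codons) followed at 0.83, and IMMP2L (175 codons), at 0.81, was high for its length. Short members that did not go with the others were HSPE1 (102 codons, 0.40, adjusted p = 1.8e-04) and TOMM20 (145 codons, 0.20, adjusted p = 0.0019). TIMM10 (90 codons) was at −0.15 and not called. TOMM40L (308 codons) was low for its length at −0.51, where TOMM40 (361 codons) was at 0.75.

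Across members the log2 ratio of HP to total RNA had a Spearman correlation of 0.64 with coding length for control siRNA and 0.64 for hnRNP U siRNA (n = 48 genes, which share the same libraries). Over all 12758 protein-coding genes it was −0.10, and over the 3299 genes under 300 codons it was 0.33, where the 28 members of that length had 0.76. The median of all genes was −0.73 under 100 codons, −0.21 at 100 to 149, 0.25 at 200 to 299 and 0.01 at 500 or more. The members' medians in the same ranges were −1.07, −0.86, 0.42 and 0.42.

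**Figure D4:**
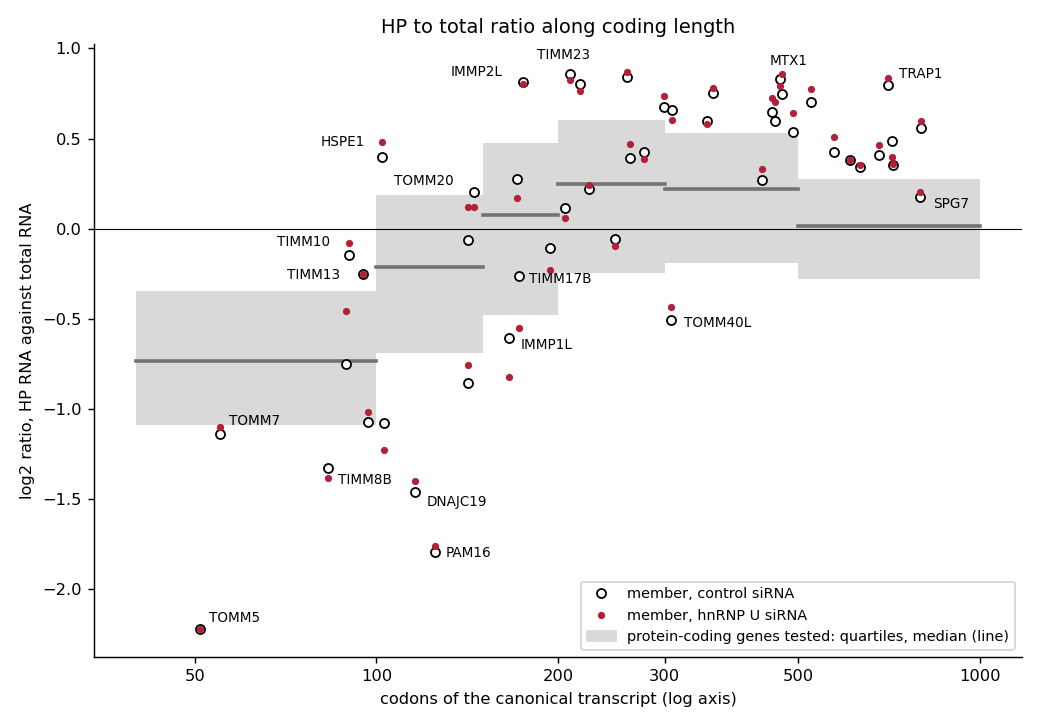
Log2 ratio of HP RNA to total RNA (y axis) against the number of codons of the canonical transcript (log x axis) for 48 members with control siRNA (open circles) and hnRNP U siRNA (red points); grey boxes are the quartiles and grey lines the medians of all protein-coding genes tested in each length range with control siRNA, the last range being drawn to 1000 codons. Members under 150 codons lie mostly below 0, and the circles and red points of most genes lie close together.

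The change of the ratio itself, HP/total, is the interaction term of a fit to all 12 libraries. None of the 48 members was called, higher or lower, by edgeR, beside 0.0817% of all genes in each direction (13 genes each, of 15920). DESeq2 called none either. In edgeR 3 of the 48 members (TIMM9, CHCHD4 and TIMM17B) had an unadjusted p under 0.05, beside 1120 of all 15920 genes. The smallest adjusted p was 0.5, and 0.17 over the 19 alternatives. The median half-width of the 95% interval was 0.18 on the log2 scale, and the interval lay within 0.5 of 0 for 45 members. It reached past 0.5 for TIMM9 and for the thinly counted TOMM5 and PAM16, so that a change of that size lay inside the interval of these 3.

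TIMM9 had 24.5, 22.3 and 22.9 CPM in total RNA with control siRNA and 22.4, 20.6 and 22.2 with hnRNP U siRNA, and 12.4, 15.6 and 13.4 against 15.5, 14.9 and 17.7 in HP RNA. Its change of the ratio was 0.31 (95% interval 0.07 to 0.55; adjusted p = 0.5 from edgeR). CHCHD4 was at 0.21 (0.03 to 0.39; adjusted p = 0.62). TIMM17B, the lowest, was at −0.27 (−0.50 to −0.03; adjusted p = 0.63).

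TIMM17B, which had the second largest fall in HP RNA, also had the lowest change of the ratio. The intervals of the other 11 members with the largest HP changes held 0. MIPEP was at −0.06 (−0.33 to 0.20), TIMM13 at 0.02 (−0.18 to 0.23), TIMM8A at 0.08 (−0.14 to 0.30) and MTX1 at −0.02 (−0.21 to 0.18). HSPA9 was at 0.08 (−0.06 to 0.22) and TIMM17A at −0.08 (−0.25 to 0.09). TOMM20, with its RG4 motif, was at −0.06 (−0.19 to 0.07) and TOMM40 at 0.05 (−0.10 to 0.21).

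Members with and without an RG4 motif were set side by side. The group without a motif is not free of RG4s in the study's sense. It includes HSPD1, whose mRNA the study counts among those that contain RG4s. In HP RNA, 9 of the 16 with a motif were higher and 3 lower, with a median of 0.20. Of the 32 tested without it 12 were higher and 4 lower, with a median of 0.11. Of all genes tested, 25.5% were higher and 26.3% lower. In total RNA the counts were 8 and 3 against 14 and 6, with medians of 0.11 and 0.11, beside 28.0% and 29.3% of all genes. In HP/total the medians were 0.07 and 0.03, beside 0.04 over all genes. With DESeq2's size factors these 3 values became 0.03, 0.00 and 0.00. In the main fit 15 of the 16 members with a motif and 18 of the 32 without had an HP/total change above 0, beside 60.9% of all genes. With DESeq2's size factors these were 11 and 15, beside 50.3% of all genes. The difference between the groups was not tested. Among the motifs printed above, those of TIMM13, TOMM40 and CHCHD4 belong to members called higher in both fractions and those of TOMM20 and IMMP2L to members called lower in both, while TIMM44 was called in neither.

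**Figure D5:**
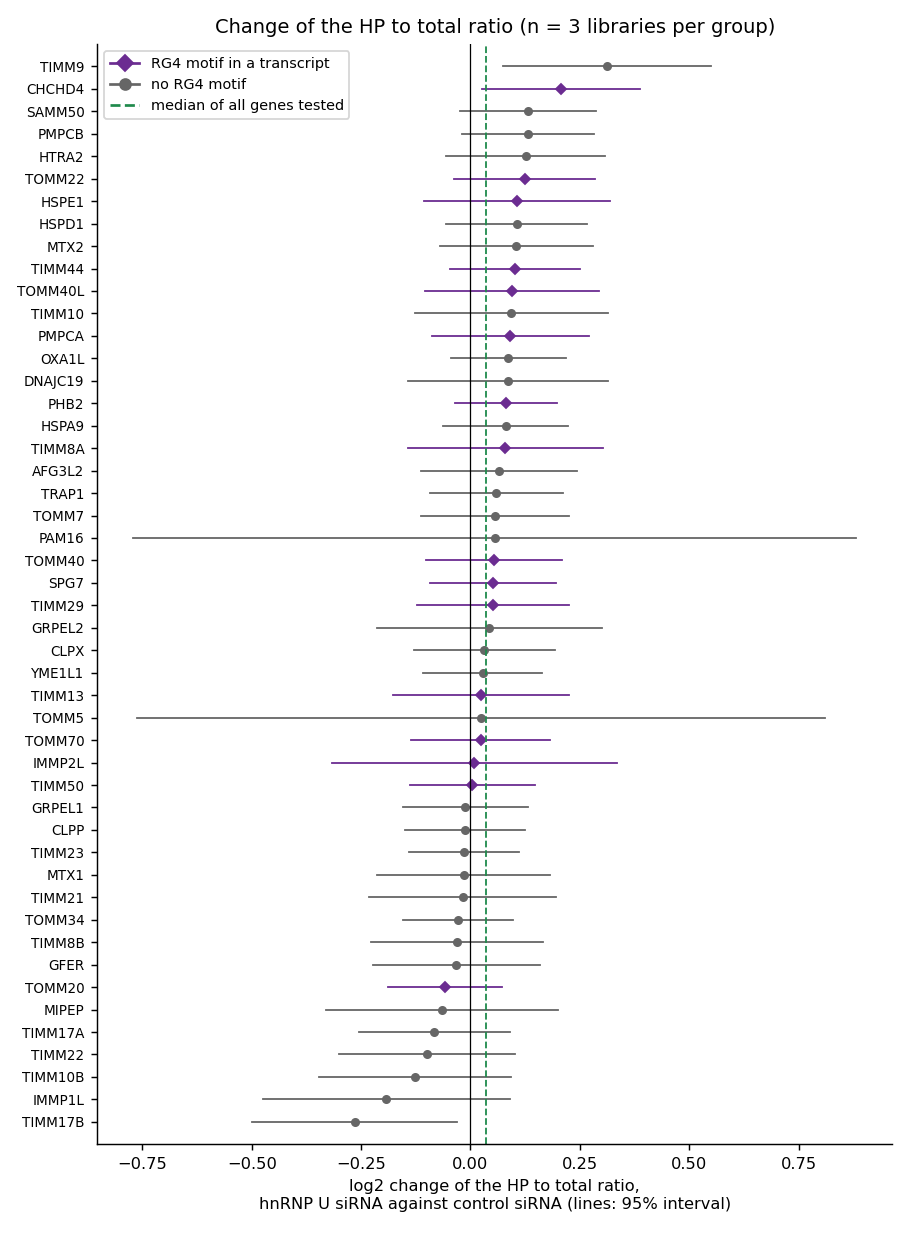
Change of the log2 HP to total ratio between hnRNP U siRNA and control siRNA for 48 members, ordered by value, with 95% intervals (n = 3 libraries per group); purple diamonds are members with an RG4 motif in any transcript, grey circles those without, and the dashed line is the median of all genes tested. The values run from −0.27 for TIMM17B to 0.31 for TIMM9, and the intervals of PAM16 and TOMM5 are the widest.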

How the data were processed

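The counts were raw read counts per gene deposited by the authors, who trimmed reads with Trim Galore, aligned them with STAR to hg38 and counted on GENCODE 43; the strand setting and the version of STAR were not given in the sources used here, and the submitters' processing notes name CASAVA 1.8. Libraries were poly(A)-selected and directional. From 30305012 to 39761103 counts a library, edgeR 4.0.16 (TMM, minimum count of 10, quasi-likelihood F-test) tested all 15920 genes kept, with Benjamini-Hochberg adjustment over all of them and a threshold of 0.05, in 6 libraries for each comparison and in all 12 for HP/total. Normalised CPM are TMM-scaled. Coding lengths, motifs and overlaps came from GENCODE 44, which held 62639 of the 62703 identifiers. DESeq2 1.42.0 was an alternative. The tests were checked on simulated data. Replicates are 3 independent experiments per the study, and each experiment name in the labels covers 4 libraries, 1 of each group, so the numbers pair the libraries. Deviations from the group means of same-numbered libraries correlated at −0.02 to 0.09 between siRNAs and 0.05 to 0.13 between fractions of an siRNA. The main fit had no block, and the experiment as a block was an alternative. Precision covers counting error and the spread between experiments.

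The members and lists were chosen with earlier results of these data known. Every member was described by its complex; values per library were given for HNRNPU, HSPD1, the paralogue pairs TOMM40 and TOMM40L, TIMM17A and TIMM17B, TIMM8A and TIMM8B, TIMM10 and TIMM10B, GRPEL1 and GRPEL2, the 6 largest rises and falls in HP RNA (adjusted p under 0.05, same sign in 3 replicate numbers) and the 4 highest and lowest HP to total ratios with control siRNA. Values of OXA1L, TIMM9, ATF4, ATF5 and MICOS10 and the promoter motifs were added after values were seen.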

Additional observations from a re-analysis of the deposited data

How the results depend on the processing

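Counts of members called stayed within 1.5 times of those reported under DESeq2, other scalings, other count filters and all 12 libraries in 1 fit, and no called member changed sign in any comparison. Leaving out each library in turn gave 18 to 24 members higher and 8 to 9 lower in total RNA, 16 to 20 and 6 to 7 in HP RNA, 29 to 30 and 12 to 14 in HP against total RNA with control siRNA, 28 to 31 and 13 to 14 with hnRNP U siRNA, and 0 in HP/total. Of the 31 members called in total RNA 24 were called in every alternative, and of the 28 in HP RNA 22. An RG4 motif was found in 9 members in place of 16 with the canonical transcript alone. Of the 10 members highest per length, 8 were among the 10 highest when the longest transcript gave the length. DESeq2's size factors shift all genes alike, so the rank correlation of 0.64 with coding length could not change under them.

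With the experiment as a replicate block, 25 members were higher and 9 lower in total RNA, 23 and 9 in HP RNA, 30 and 13 in HP against total RNA with control siRNA and 31 and 15 with hnRNP U siRNA; with either block, 0 were called in HP/total. The block added 3 calls in total RNA and 4 in HP RNA, given with those members, GRPEL2 in HP against total RNA with control siRNA (0.22, adjusted p = 1.3e-04 against 0.05) and TIMM21 (−0.10, adjusted p = 0.046) and CHCHD4 (0.12, adjusted p = 0.027) with hnRNP U siRNA, and changed no other member's call. Counts of 8 to 76 a library for TOMM5 and 7 to 67 for PAM16 limit their precision.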
